A study of Mus musculus with 2 samples.

Results

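Ribosomal protein genes encode the proteins of the cytosolic ribosome, the particle that translates messenger RNA into protein. The genes described here were the 82 rows of 55357 in both count matrices whose symbol is Rpl or Rps with a number, or Rplp0, Rplp1, Rplp2 or Rpsa, with at least 100 UMIs (counted RNA molecules) over both libraries. Of these 82 members, 50 carry a large subunit name (Rpl) and 32 a small subunit name (Rps). Pseudogene rows ending in -ps, of which the matrices hold 322, S6 kinase genes and the 84 mitochondrial ribosomal protein rows are no members.

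The data are single-cell RNA sequencing of tumours grown from 4T1, a triple-negative mouse breast cancer cell line, in BALB/c mice. One library came from mice given AptCD4-LNT, given as cells in doses of 5, 4 and then 3 times 1000000 with 3 days between doses, and the other, labelled Untreated, from mice given PBS. Tissue was taken at day 9, and each library is a mixture of 3 tumours, so neither mouse nor tumour can be told apart and age is not given in the labels. With 1 library per group there are no replicates, and no difference was tested against variation between animals. The 95% intervals below are exact binomial intervals that cover counting error only.

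Each mature ribosome holds 1 copy of most ribosomal proteins, and cells keep their synthesis in balance. In mammals much of this control acts on translation: most of these mRNAs begin with a C followed by an unbroken run of C and T bases, the 5′ terminal oligopyrimidine tract (TOP), through which mTOR signalling sets how well they are translated, while Myc raises their transcription. Their mRNAs are among the most abundant of a growing cell, and mature neutrophils, which no longer divide, are known to hold little RNA. UMI levels report mRNA only and not ribosomes or their translation.

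To show what such starts look like in these genes, 30 bases around the RefSeq gene start (10 before it and 20 from it) are given 5′ to 3′ on the gene's strand, with capitals marking the unbroken run of C and T bases that holds the C with 4 more C or T bases after it lying nearest to the start, within 10 bases of it (build GRCm38.p6; the count matrices use GRCm39, and no coordinate was carried over). The first 4 lines are members described below for neutrophil-like cells (Rps9, Rps27, Rps18, Rpl15), the next 2 are Rplp2 of the P stalk and Rps6, the substrate of S6 kinase, the line of Rps2 is a member that was higher in the AptCD4-LNT library, and the last is the paralog Rpl39l.
Rps9, chr7:3704031-3704060, plus strand: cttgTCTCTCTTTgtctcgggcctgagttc
Rps27, chr3:90213629-90213658, minus strand: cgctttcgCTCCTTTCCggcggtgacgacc
Rps18, chr17:33955646-33955675, minus strand: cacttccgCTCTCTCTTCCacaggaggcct
Rpl15, chr14:18270967-18270996, minus strand: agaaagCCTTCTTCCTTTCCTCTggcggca
Rplp2, chr7:141447641-141447670, plus strand: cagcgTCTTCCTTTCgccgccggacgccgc
Rps6, chr4:86857348-86857377, minus strand: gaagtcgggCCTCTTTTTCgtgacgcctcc
Rps2, chr17:24720053-24720082, plus strand: gtcgagatctcgcgCTTCTTggagcactat
Rpl39l, chr16:10170218-10170247, plus strand: aggCCTTTCCggatttccggtggtcgccat
A C at the annotated start itself with 4 more C or T bases after it, read on the gene's strand only, stood in 14 of 72 promoter rows of members (19.4%; 60 members had a row) and in 2.51% of all 32851 rows. Within 10 bases of the start the same motif stood in 55.6% of the members' rows and in 30.7% of all rows. None of the 75 rows of mitochondrial ribosomal protein genes had it at the start, and 2 of 12 rows (16.7%) of translation factors did. These are matches to letters at annotated starts, and a start annotated a few bases off shifts a gene from one count to the other.

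Cells fell into 22 clusters, made without the members among the clustering genes, and 7 classes named from marker genes had at least 50 cells in each library. They were epithelial-like cells (which include the tumour cells; 3754 cells with AptCD4-LNT and 9453 Untreated), neutrophil-like (2131 and 2978), monocyte-macrophage-like (1447 and 3798), fibroblast-like (853 and 780), T-like (151 and 601), endothelial-like (59 and 179) and pericyte-like cells (51 and 102). The T-like class also held NK markers, at 1744 and 1228 CPM (UMIs per 1000000 UMIs of the class) summed over the list against 2518 and 4990 CPM for T markers. Library totals were 98968100 and 131295224 UMIs, with a median of 8612 and 4640.5 UMIs per barcode, and 42 barcodes occurred in both libraries (0.470% and 0.210%). The AptCD4-LNT cells were the deeper ones in every class, for example 17515 against 7286 UMIs at the median in epithelial-like cells.

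Ribosomal protein mRNAs made up about the same share of the summed UMIs of both libraries. Class shares differed far more between classes than between libraries. Over all kept cells the 82 members gave 13.2% of UMIs in the AptCD4-LNT library and 13.3% in the Untreated library, a log2 ratio of -0.01. The median kept cell stood lower with AptCD4-LNT, at 10.6% against 12.1%, and the lower quartile at 3.41% against 7.85%. The sums also mix the classes differently: epithelial-like cells were 3754 of 8653 kept cells with AptCD4-LNT and 9453 of 18511 Untreated. Among classes the share was highest in T-like cells, at 15.1% and 16.2%, followed by epithelial-like cells at 14.6% and 14.3%. The order of these 2 classes by summed share was the same in both libraries, but the median AptCD4-LNT cell stood at 13.9% in T-like and 14.4% in epithelial-like cells, and the quartiles of their single cells overlapped, from 10.4% to 18.4% and from 12.5% to 16.5% in the AptCD4-LNT library.

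Stromal and monocyte-macrophage-like cells lay between 9.33% and 11.5%, with no common order in the 2 libraries. Fibroblast-like cells gave 9.33% and 10.0%, pericyte-like cells 9.93% and 11.5%, endothelial-like cells 10.8% and 10.0%, and monocyte-macrophage-like cells 10.8% and 10.5%. Neutrophil-like cells, short-lived phagocytes, stood apart at 2.52% (2.50 to 2.53) and 2.68% (2.66 to 2.70). Their upper quartile, 2.79% and 3.14% of a cell's UMIs, was under the lower quartile of every other class in both libraries.

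**Figure D1:**
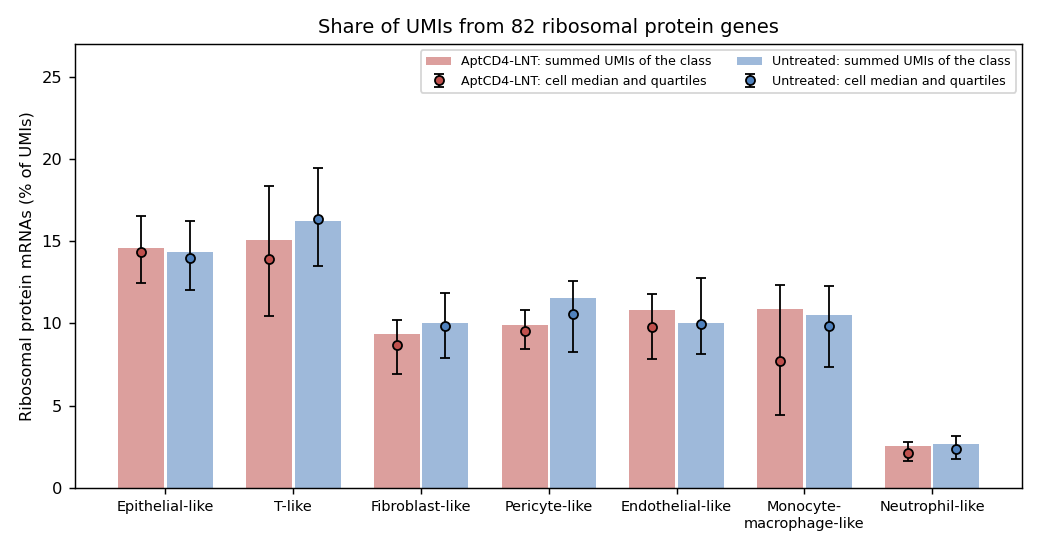
Share of UMIs from the 82 ribosomal protein genes (vertical axis, percent) in the 7 cell classes (horizontal axis) for the AptCD4-LNT (red) and Untreated (blue) libraries; bars are sums over the class, and points with whiskers are the median and quartiles over cells. Neutrophil-like cells sit at 2.52% and 2.68% and all other classes between 9.33% and 16.2%.

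Between the libraries the class shares moved by small amounts in both directions. The share was lower in the AptCD4-LNT library in pericyte-like cells (log2 ratio -0.22, 95% interval -0.23 to -0.20), T-like cells (-0.11, -0.12 to -0.10), fibroblast-like cells (-0.10, -0.10 to -0.10) and neutrophil-like cells (-0.09, -0.10 to -0.08). It was higher in endothelial-like cells (0.11, 0.10 to 0.13), monocyte-macrophage-like cells (0.05, 0.04 to 0.05) and epithelial-like cells (0.02, 0.02 to 0.02). In 3 classes this direction did not hold: in endothelial-like cells it turned with each cell weighted equally (-0.01) and with cells thinned to 1000 UMIs (-0.08), in monocyte-macrophage-like cells it turned to -0.20 and -0.12 in the same way and to -0.03 without doublet removal, and in both epithelial-like (-0.03) and monocyte-macrophage-like cells (-0.14) it turned when set against the median gene. In neutrophil-like cells the ratio was -0.64 without doublet removal, where the class gained a mixed cluster of 79 and 579 cells (median 17699 and 6206 UMIs) whose next best markers are epithelial, and -0.016 with that cluster left out.

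Markers of other classes also differed between the libraries, with some of these shares and against others. Epithelial markers summed to 173 CPM in AptCD4-LNT and 1048 CPM in Untreated fibroblast-like cells (3 and 8 of 10 markers at 20 CPM or more, 1 at 0 in each) and to 609 and 1802 CPM in pericyte-like cells (5 and 8 of 10, with 2 and 1 at 0). In epithelial-like cells, the class with the higher share of ribosomal protein mRNAs, the same markers summed to 5268 and 5363 CPM. Neutrophil markers summed to 1669 and 2485 CPM in pericyte-like cells (5 and 4 of 9 at 20 CPM or more, 1 and 0 at 0). Fibroblast markers summed to 11655 and 7189 CPM there (5 of 8 in each, with 0 and 1 at 0), above the pericyte markers at 7673 and 3354 CPM. Erythroid markers summed to 334 and 36.5 CPM in neutrophil-like cells (4 and 0 of 5, with 0 and 1 at 0) and to 164 and 8.33 CPM in monocyte-macrophage-like cells (3 and 0 of 5, with 0 and 1 at 0). In monocyte-macrophage-like cells, where the share was higher with AptCD4-LNT, epithelial markers summed to 135 and 290 CPM. Fibroblast markers were higher with AptCD4-LNT in epithelial-like (287 and 126 CPM) and T-like cells (405 and 173 CPM). The same held in monocyte-macrophage-like (410 and 113 CPM) and neutrophil-like cells (616 and 261 CPM). The part of this RNA from other cells in the shares was not tested.

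Within classes the clusters did not move together. The neutrophil-like clusters went opposite ways, at 2.43% against 2.63% in cluster 13 (1687 and 903 cells, log2 ratio -0.12) and 2.98% against 2.71% in cluster 14 (444 and 2075 cells, 0.14), so that class ratio too compares different mixtures. The 2 fibroblast-like clusters gave 8.83% against 10.3% in cluster 6 (log2 ratio -0.22) and 10.5% against 9.81% in cluster 7 (0.10), and the AptCD4-LNT library held 664 cells of the former and 189 of the latter against 338 and 442. Of the monocyte-macrophage-like clusters, cluster 15, led by Ms4a7, Cd72 and Cx3cr1, gave 13.1% against 9.46% (462 and 59 cells, log2 ratio 0.46). Cluster 16, led by Bglap, Clec4n and Pf4, gave 13.1% against 10.9% (84 and 1983 cells, log2 ratio 0.27). Cluster 11, led by Ccl8, Mrc1 and Selenop, was lower in both libraries, at 6.77% against 7.19% (873 and 728 cells, log2 ratio -0.09). Cluster 10, led by Mmp12 and Ccl24, gave 11.2% against 11.02% on 28 and 1028 cells. Cluster 11 held most of the class in the AptCD4-LNT library and cluster 16 in the Untreated library, so its ratio also compares different mixtures of clusters.

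The share also followed the depth of a cell, and did so differently in the 2 libraries. In monocyte-macrophage-like cells of the AptCD4-LNT library the median share rose from 3.62% in cells of 500 to 1000 UMIs to 13.6% in cells of 8000 to 16000 UMIs, while the Untreated library went from 8.09% to 11.3%. In fibroblast-like cells the AptCD4-LNT share rose from 4.201% to 8.90% over the same depths and the Untreated share fell from 12.2% to 9.38%. In epithelial-like cells the shallowest cells stood at 3.97% and 11.6%, and those of 8000 to 16000 UMIs at 14.5% and 14.1%. Malat1, a long RNA kept in the nucleus, stood at 48496 and 20086 CPM in these shallowest epithelial-like cells and at 13043 and 11499.8 CPM in the deeper ones. It was also higher in the shallowest fibroblast-like cells, at 63502 and 29736 CPM against 16890 and 18086 CPM, but not in AptCD4-LNT monocyte-macrophage-like cells to the same degree, at 16294 against 9903 CPM. The part of nuclear RNA in the low shares was not tested.

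Neutrophil-like cells were also below monocyte-macrophage-like cells at matched depth. Among cells of 1000 to 2000 UMIs the median share was 2.07% and 2.10% in neutrophil-like cells, and 4.98% and 8.58% in monocyte-macrophage-like cells. Among cells of 500 to 1000 UMIs it was 2.64% (quartiles 1.91 to 3.46) and 2.50% (1.87 to 3.34) against 3.62% (2.43 to 5.29) and 8.09% (5.86 to 11.1), so the quartiles overlapped in the AptCD4-LNT library.

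**Figure D2:**
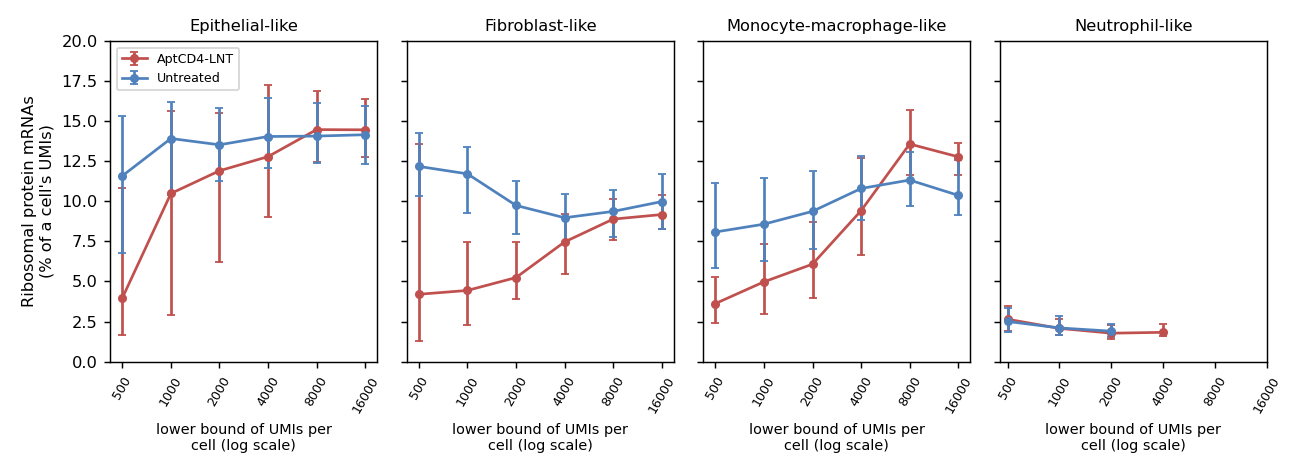
Median share of a cell's UMIs from ribosomal protein genes (vertical axis, percent; whiskers are quartiles over cells) by the cell's UMI total (horizontal axis, lower bound of each 2-fold bin, the last one ending at 32000; bins with at least 20 cells) in 4 classes of the AptCD4-LNT (red) and Untreated (blue) libraries. Shallow AptCD4-LNT cells lie below Untreated cells in 3 classes, with 3.62% against 8.09% in the shallowest monocyte-macrophage-like cells, and neutrophil-like cells stay low at all depths shown.

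Single members rarely differed between the libraries by more than 1.5-fold, the size used here in place of a test. Of the 82 members in all kept cells, 1 was higher (Rpl39l) and 1 lower (Rpl3l) in the AptCD4-LNT library, where 10.9% of 15528 genes with at least 100 UMIs were higher and 4.53% lower by that size. In epithelial-like cells 0 of 79 members passed in either direction (all genes 6.03% higher, 3.96% lower), in T-like cells 0 of 77 (10.6% and 5.9%), in monocyte-macrophage-like cells 0 of 78 (16.3% and 5.54%) and in neutrophil-like cells 0 of 76 (24.9% and 5.39%). Fibroblast-like cells had 1 of 79 higher, Rpl39l (8.47% and 10.7%), pericyte-like cells 1 of 76 lower, Rpl37 (12.9% and 9.21%), and endothelial-like cells 1 of 78 lower, Rps4l (4.04% and 5.3%). Members are highly expressed, so their ratios carry less counting noise than those of most genes in these shares. The median member's log2 ratio was 0.01 in epithelial-like, -0.10 in T-like, -0.14 in fibroblast-like, -0.22 in pericyte-like, 0.11 in endothelial-like, 0.03 in monocyte-macrophage-like and -0.14 in neutrophil-like cells. The median of all genes was 0.19 in monocyte-macrophage-like and 0.22 in neutrophil-like cells and within 0.1 of 0 in the other 5 classes.

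**Figure D3:**
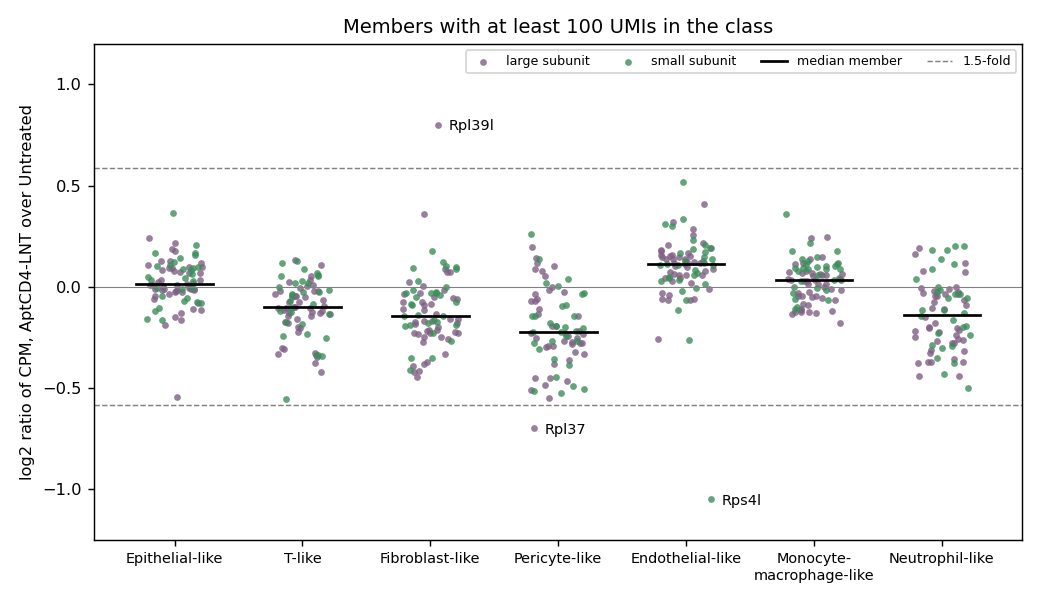
Log2 ratio of CPM, AptCD4-LNT over Untreated (vertical axis), of each member with at least 100 UMIs in the class (points; large subunit purple, small subunit green) in the 7 classes (horizontal axis), with the median member (bar) and the 1.5-fold lines (dashed). Points outside the lines are Rpl39l at 0.80 in fibroblast-like, Rpl37 at -0.70 in pericyte-like and Rps4l at -1.05 in endothelial-like cells.

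Members that lay on the same side in every class were few, as they were among all genes. Of 76 members with at least 100 UMIs in each of the 7 classes, 1 had a ratio above 0 in all of them, Rps2, and 5 had a ratio below 0 in all, Rpl10, Rpl21, Rpl36, Rpl37 and Rps26. Of 1325 genes with that minimum in every class, 7.09% lay above 0 and 8.15% below 0 in all 7. Set against the median member of the class, 6 were above in all 7 (Rpl31, Rplp1, Rps10, Rps13, Rps19 and Rps2) and 5 below in all (Rpl6, Rpl14, Rpl21, Rps20 and Rps26), against 9.81% and 5.89% of all genes, so these counts are no result about the members as a group. All classes of 1 library share that library's preparation, so the 7 classes are not independent looks at the treatment.

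Rps2, a small subunit protein near the mRNA entry, stood at 1958 CPM in AptCD4-LNT and 1519 CPM in Untreated epithelial-like cells, a log2 ratio of 0.37 (0.36 to 0.38). It was furthest apart in endothelial-like cells, at 1624 against 1133 CPM (0.52, 0.40 to 0.64), and level in neutrophil-like cells, at 159.5 against 159.4 CPM (0.00, -0.18 to 0.18). In T-like cells it was 1433 against 1415 CPM (0.02, -0.09 to 0.13), so in these 2 classes its interval includes 0.

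Rps26, a small subunit protein at the mRNA exit, was lower in the AptCD4-LNT library by most in T-like cells, at 1714 against 2521 CPM (-0.56, -0.65 to -0.46). It was 1698 against 1904 CPM in epithelial-like cells (-0.17, -0.18 to -0.15) and 1304 against 1365 CPM in monocyte-macrophage-like cells (-0.07, -0.10 to -0.03). Rpl21 of the large subunit was 468.0 against 627.6 CPM in fibroblast-like cells (-0.42, -0.49 to -0.36) and 785 against 897 CPM in epithelial-like cells (-0.19, -0.21 to -0.18). Rpl37, a small large-subunit protein, was 1132 against 1839 CPM in pericyte-like cells (-0.70, -0.86 to -0.54), 1043 against 1419 CPM in fibroblast-like cells (-0.44, -0.49 to -0.40), and 1441 CPM in both libraries in monocyte-macrophage-like cells.

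The P stalk, which recruits elongation factors to the large subunit, was measured by 3 members. Rplp1, with 1078248 UMIs one of the most counted members, was 4902 against 3816 CPM in fibroblast-like cells (0.36, 0.34 to 0.38), while the median member there was lower. It was 5457 against 4691 CPM in epithelial-like cells (0.22, 0.21 to 0.22) and 650 against 671 CPM in neutrophil-like cells (-0.05, -0.14 to 0.04). Rplp2 lay closer to 0, at 2267 against 2118 CPM in epithelial-like (0.10) and 2837 against 2844 CPM in T-like cells. Rplp0, which anchors the other two, was 1976 against 1749 CPM in epithelial-like cells (0.18, 0.17 to 0.19), but 1507 against 1955 CPM in T-like cells (-0.38, -0.48 to -0.27) and 243 against 330.4 CPM in neutrophil-like cells (-0.44, -0.58 to -0.30). The 3 stalk mRNAs thus did not keep 1 ratio to each other between the libraries, and within T-like cells Rplp1 and Rplp0 went opposite ways.

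Rpl5 and Rpl11, which with 5S rRNA form the particle that can bind Mdm2 and so stabilise p53, lay at 1366 against 1201 CPM (0.18) and 1622 against 1634 CPM (-0.01) in epithelial-like cells. In neutrophil-like cells both were lower in the AptCD4-LNT library, at 106 against 125 CPM (-0.24, -0.45 to -0.02) and 188 against 241 CPM (-0.36, -0.52 to -0.20). Rpsa, also known as the laminin receptor, was 2482 against 3135 CPM in T-like cells (-0.34, -0.42 to -0.26) and 2310 against 2164 CPM in epithelial-like cells (0.09, 0.08 to 0.10). Rps27a, made as a fusion with ubiquitin, was 2894 against 2912 CPM in epithelial-like (-0.01) and 1967 against 1588 CPM in endothelial-like cells (0.31, 0.20 to 0.41). Rps6, the S6 kinase substrate, was 385 against 349 CPM in epithelial-like cells (0.14, 0.12 to 0.17) and 65.3 against 63.5 CPM in neutrophil-like cells (0.04, -0.25 to 0.33).

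Rps29, a zinc-binding small subunit protein, was the member furthest above the median member in monocyte-macrophage-like cells, at 2912 against 2268 CPM (0.36, 0.34 to 0.39), and lay at 1906 against 2070 CPM in epithelial-like cells (-0.12). Rpl23 and Rps12, the members with the most and the third most UMIs (1348229 and 896317), stayed close in epithelial-like cells, at 6666 against 6637 CPM (0.01) and 4381 against 4250 CPM (0.04). In pericyte-like cells Rpl23 was 3348 against 4626 CPM (-0.47, -0.56 to -0.37).

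Neutrophil-like cells held not only fewer ribosomal protein UMIs but another mixture of them. Against epithelial-like cells of the same library the median member was 6.58-fold lower in the AptCD4-LNT and 5.81-fold lower in the Untreated library. These are log2 ratios of -2.72 and -2.54. The median of all genes was lower too, at log2 ratios of -1.51 and -1.78. In each library 77 of 78 members were lower by more than 1.5-fold and 0 were higher, where 65.9% and 71.2% of all genes were lower by that size. The exception in both libraries was Rps9. This small subunit protein, whose bacterial relative is known for its part in decoding accuracy, stood at 1855 and 1614 CPM in neutrophil-like cells against 2477 and 2317 CPM in epithelial-like cells, 1.34-fold and 1.44-fold lower. Rps27, a zinc-binding small subunit protein, followed at 1033 and 912 CPM against 1716 and 1842 CPM, and Rps29 at 739 and 696 CPM against 1906 and 2070 CPM.

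Expressed as a share of ribosomal protein UMIs, which does not depend on the total, Rps9 made up 7.38% (7.197 to 7.557) and 6.03% (5.86 to 6.20) in neutrophil-like cells, where the equal-weight mean of the 7 classes was 2.55% and 2.29%. Rps27 made up 4.11% and 3.40% against means of 1.67% and 1.58%, and Rps29 2.94% and 2.60% against 1.83% and 1.72%. These 3 were high by more than 1.5-fold in both libraries, and 11 of the 75 members with at least 200 UMIs were low: Rps18, Rpl10a, Rpl4, Rpl3, Rpl12, Rpl5, Rps4x, Rps2, Rpl36a, Rpl15 and Rpl35. Rps18 made up 0.371% and 0.400% against means of 0.760% and 0.765%, Rpl4 0.348% and 0.387% against 0.704% and 0.663%, and Rps4x 1.14% and 1.52% against 2.19% and 2.38%. Scaled in the same way to ribosomal protein UMIs, 82.9% of all 3123 genes were high and 1.92% low in neutrophil-like cells, since the denominator is small there. Of the members named in the sequence lines, Rps27 (high) and Rps18 and Rpl15 (low) have the motif at the annotated start, and Rps9 (high) has it 3 bases before, inside a run that covers the start. Each printed line holds a match, which many other rows of members do not. Among the low members, Rpl4, Rpl5 and Rps4x have none within 10 bases. Rpl35 has it at the start, Rpl12, Rps2 and Rpl36a 2, 4 and 9 bases after, and Rpl10a 7 bases before an annotated start.

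In both libraries the Rps9 level was higher in cluster 13, led by Ngp, S100a8 and Retnlg, at 1899 and 1861 CPM. In cluster 14, led by Hcar2 and Ccl3, it was 1631 and 1476 CPM. All members together gave a smaller share of UMIs in cluster 13, so the Rps9 share of ribosomal protein UMIs differed further between the clusters. Cluster 13 held 1687 and 903 cells and cluster 14 held 444 and 2075, so the class values of Rps9 compare different mixtures. Only 8.89% of the 90-base stretches of Rps9 transcripts occur in another gene, against a median of 24.3% over 79 members with matched transcripts (GENCODE M21), and 41.0% of those of Rps27 and 27.2% of those of Rps29 do. Of the neighbours of Rps9 in RefSeq, Mboat7 stood at 99.5 and 71.0 CPM in neutrophil-like cells and Tsen34 at 20.9 and 13.7 CPM. Pirb, an inhibitory receptor of myeloid cells, stood at 151 and 75.4 CPM. The part of shared sequence or of neighbouring genes in the Rps9 level was not tested. Epithelial markers in neutrophil-like cells summed to 279 and 303 CPM, 5.30% and 5.64% of their level in epithelial-like cells, and the part of such RNA in the members' levels was not tested. Without doublet removal, with the mixed cluster in the class, the Rps9 share stood 0.78 and 0.30 (log2) above the class mean in place of 1.53 and 1.40, and that of Rps18 stood at -0.10 and 0.01 in place of -1.03 and -0.93. With called doublets kept but the mixed cluster left out, a setting chosen after seeing the data, Rps9 stood at 1.41 and 1.31, Rps27 at 1.17 and 1.03, Rps29 at 0.59 and 0.57 and Rps18 at -0.79 and -0.72.

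**Figure D4:**
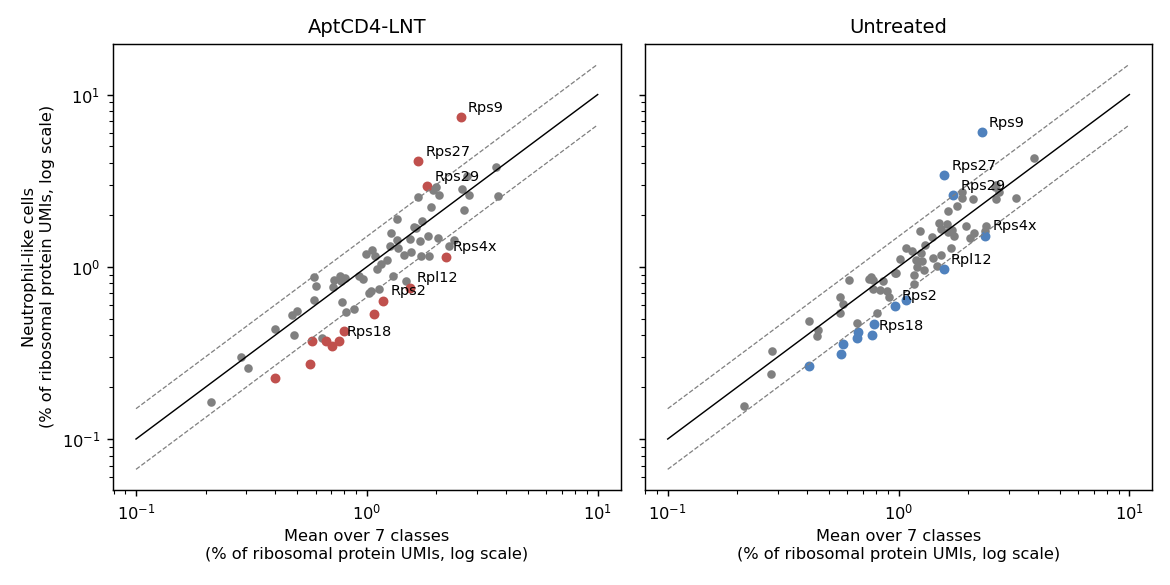
Share of ribosomal protein UMIs taken by each member with at least 200 UMIs in neutrophil-like cells (vertical axis, percent, log scale) against its equal-weight mean over 7 classes (horizontal axis, percent, log scale) in the AptCD4-LNT (left) and Untreated (right) libraries; the line marks equal shares, dashed lines 1.5-fold, and colour the members past them in both libraries. Rps9 lies highest above the line, at 7.38% and 6.03% against 2.55% and 2.29%.

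In the other classes the mixture was almost the same. Past 1.5-fold in both libraries lay 0 of 78 members in epithelial-like cells (all genes 7.44% high and 36% low), 0 of 75 in pericyte-like cells (14.6% and 15.5%), 0 of 75 in endothelial-like cells (21.9% and 11%) and 0 of 77 in monocyte-macrophage-like cells (7.35% and 24.4%). In T-like cells 1 of 76 was low (6.47% and 39.4%), Rps9 at 1.66% and 1.49%. In fibroblast-like cells Rps9 was low too, at 1.55% and 1.52%, and Rps4l was high (16.4% and 16.9%). The neutrophil-like class is part of the mean, so its high Rps9 share lowers the relative value of the other 6. Member shares of the 2 libraries correlated across members with Pearson r between 0.974 in pericyte-like and 0.997 in epithelial-like cells (log scale, 75 to 78 members, as a description).

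The paralogs Rpl39l, Rps4l and Rpl3l had most of their UMIs in a few classes. Rpl39l, a copy of Rpl39 (a protein of the exit tunnel) known from the testis, had most of its UMIs in fibroblast-like cells here. It gave 154 UMIs or 13.8 CPM (11.7 to 16.2) in AptCD4-LNT and 44 UMIs or 7.92 CPM (5.76 to 10.6) in Untreated fibroblast-like cells, a log2 ratio of 0.80. The 2 intervals do not overlap, and both fibroblast-like clusters went the same way, with 10.97 against 6.34 CPM in cluster 6 and 20.5 against 9.10 CPM in cluster 7. Outside this class it had 3 and 6 UMIs in pericyte-like and 1 and 7 UMIs in epithelial-like cells, and 0 in T-like, endothelial-like and neutrophil-like cells. The pericyte-like counts come from class totals of only 430101 and 511035 UMIs. They are too few to place the Rpl39l level there below that of fibroblast-like cells. Over all kept cells its log2 ratio of 1.71 is larger than in the class, where fibroblast-like cells were 853 of 8653 cells in the AptCD4-LNT and 780 of 18511 in the Untreated library. None of the 90-base stretches of its transcripts occurs in another gene.

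Rps4l, a relative of Rps4x that RefSeq lists as a transcribed pseudogene, was a stromal gene. It stood at 76.2 CPM (850 UMIs) and 102 CPM (564 UMIs) in fibroblast-like, at 79.1 and 88.1 CPM in pericyte-like and at 59.1 CPM (40 UMIs; 42.3 to 80.5) and 122 CPM (119 UMIs; 101 to 146) in endothelial-like cells. In epithelial-like cells it was at 0.141 and 0.209 CPM on 10 and 18 UMIs. The log2 ratio was -1.05 in endothelial-like cells, where the intervals do not overlap, and fibroblast markers summed to 2489 and 111 CPM in that class. Rps4l overlaps Tmtc1, which stood at 6.91 and 7.92 CPM in fibroblast-like cells. How overlapping reads were assigned is not given in the sources used here, and the part of Tmtc1 in the Rps4l counts was not tested.

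Rpl3l, the copy of Rpl3 known from skeletal and heart muscle, was counted in myeloid cells. It gave 24 and 16 UMIs in neutrophil-like cells (7.39 and 5.46 CPM, with overlapping intervals of 4.74 to 10.997 and 3.12 to 8.87) and 14 and 60 UMIs in monocyte-macrophage-like cells (1.99 and 4.06 CPM). In the 29 Untreated cells of the skeletal muscle-like cluster, too few cells to compare, it gave 5 UMIs or 47.5 CPM (15.4 to 111). One of its neighbours in RefSeq is Msrb1, a methionine sulfoxide reductase, at 1534 and 1200 CPM in neutrophil-like, 347 and 368 CPM in monocyte-macrophage-like and 36.4 and 37.9 CPM in epithelial-like cells, and its part in the Rpl3l counts was not tested.

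The other paralogs were spread over the classes. Rps27l, a copy of Rps27 known as a p53 target, lay between 493 and 608 CPM in the epithelial-like, fibroblast-like, pericyte-like, endothelial-like and monocyte-macrophage-like cells of both libraries. It lay at 430 and 543 CPM in T-like cells (-0.34, -0.54 to -0.14) and at 132 and 115 CPM in neutrophil-like cells. Rpl6l, a pseudogene in RefSeq, gave 9.16 and 9.33 CPM in epithelial-like cells, and Rpl32l, which overlaps Map7, gave 0.791 and 1.15 CPM there. Rpl3l, Rpl32l and Rpl39l, with 143, 186 and 232 UMIs, are the members just inside the limit of 100 UMIs, and Rpl10l, at 0 UMIs, is the one that the limit left out.

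**Figure D5:**
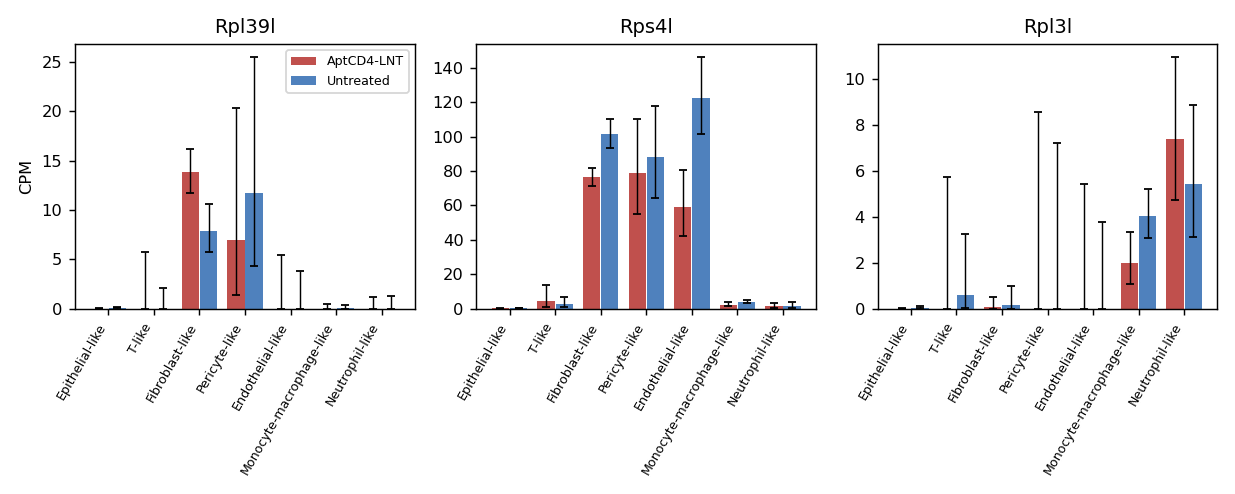
CPM (vertical axes, each with its own range) of the paralogs Rpl39l, Rps4l and Rpl3l in the 7 classes (horizontal axis) of the AptCD4-LNT (red) and Untreated (blue) libraries, with exact 95% counting intervals. Rpl39l is seen in fibroblast-like and pericyte-like cells (13.8 and 7.92 CPM in the former), Rps4l also in endothelial-like cells (59.1 and 122 CPM), and Rpl3l in myeloid cells (7.39 and 5.46 CPM in neutrophil-like cells).

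Levels of different members cannot be read as numbers of mRNAs per gene without care, because members share sequence with pseudogenes. Of 79 members with matched transcripts, 75 share at least one 90-base stretch with another gene. The 5 members with the fewest UMIs that are no paralogs were Rpl29 (14857), Rpl26 (31995), Rpl13a (59547), Rps6 (78822) and Rpl24 (84081). Of their stretches 24.8%, 24.3%, 34.3%, 83.8% and 80.4% are shared, in that order. Rpl36a, with the highest shared percentage (84.0%), had 215702 UMIs. Across members the shared percentage and the UMI total had a Spearman correlation of -0.13, given as a description. How the authors' counting treated reads that fit several genes is not given in the sources used here.

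Ribosomal rows that fall outside the symbol rule were read beside the members. Of 8 such rows, 0 passed 1.5-fold between the libraries in all kept cells (median log2 ratio -0.06). Rack1, a small subunit scaffold, stood at 2264 and 2023 CPM in epithelial-like and at 210 and 244 CPM in neutrophil-like cells. Fau, which encodes the small subunit protein eS30 fused to a ubiquitin-like protein, stood at 2190 and 2598 CPM in epithelial-like cells and at 3802 and 3215 CPM in neutrophil-like cells, the highest of the 7 classes in the AptCD4-LNT library and second to T-like cells (3349 CPM) in the Untreated library. Rps27rt, a further copy of Rps27, stood at 47.7 and 48.3 CPM in epithelial-like cells and at 33.6 and 34.1 CPM in neutrophil-like cells (109 and 100 UMIs). Fau and Rps27rt were named after their values had been seen.

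Other genes of translation and its control rarely passed 1.5-fold in all kept cells, and some regulators did within classes. Of 16 translation factors and partners 0 passed 1.5-fold in all kept cells (median -0.01) and 0 in epithelial-like cells (0.04), where Eef1a1, the main elongation factor, stood at 7320 and 6829 CPM. Of 30 ribosome biogenesis genes 0 passed in all kept cells (median 0.09) and 4 were higher in fibroblast-like cells (0.31), where 8.47% of all genes were. Of 14 measured mTOR and Myc regulators 0 passed in all kept cells (0.08). In monocyte-macrophage-like cells 2 of 14 were higher (all genes 16.3%) and 2 lower (5.54%): Ddit4, an inhibitor of mTOR signalling induced by stress, at 39.2 against 87.2 CPM (-1.16, -1.35 to -0.97), Eif4ebp1, a translation repressor that mTOR phosphorylates, at 162 against 298 CPM (-0.88, -0.97 to -0.78), Rptor at 0.59 and Tsc1 at 0.59. Myc was higher in T-like cells (1.28, on 50 and 55 UMIs), Ddit4 lower in endothelial-like cells (-0.80) and Eif4ebp2 higher in neutrophil-like cells (0.96). Of 79 mitochondrial ribosomal protein genes 0 passed in all kept cells (-0.09), where 10.9% of all genes were higher and 4.53% lower. In contrast, 9 of 12 immediate early and stress genes were higher by more than 1.5-fold in all kept cells (median 0.75; all genes 10.9%). Among them were Nr4a1 at 1.30, Zfp36 at 0.91 and Egr1 at 0.90, while the median member in all kept cells was at -0.02. This did not hold in every class. In endothelial-like cells no measured gene of this list passed that size (Nr4a1 at -0.19, Egr1 at -0.20). In neutrophil-like cells Nr4a1 (1.61), Zfp36 (0.99) and Egr1 (0.84) were higher, but Atf3 (-0.63), Hspa1a (-0.88) and Hspa1b (-0.73) lower.

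The non-members whose level followed the summed members most closely over 14 points (7 classes in 2 libraries) were Rps18-ps6, Rack1, Rpl3-ps1, Anp32b, Eef2, Pa2g4, Rbm45, Snrpg, Wdr18 and Acbd6. Their Pearson r with the summed members ran from 0.995 for Rps18-ps6 and 0.993 for Rack1 down to 0.987 for Acbd6. The points share libraries and depth, and the low neutrophil-like values weigh on every such r.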

How the data were processed

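The deposited matrices hold counts, unnormalised UMI counts per gene and barcode made with Cell Ranger 7.2.0 per the file headers, on GRCm39 per the submitters' processing notes. The intron setting, annotation release and treatment of reads that fit several genes are not given in the sources used here. The members and gene lists were chosen with earlier results of these data known.

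The filter on cells asked for 200 or more detected genes and no more than 20% of UMIs from mitochondrial genes (78 and 39 failed in the AptCD4-LNT and Untreated libraries), and doublets called by Scrublet were removed (200, 2.26%, and 1490, 7.45%), leaving 8653 and 18511 cells. Counts scaled to 10000 per cell and logged, 2000 variable genes without members, 30 principal components and 15 neighbours gave Leiden clusters at resolution 1, computed with scanpy 1.11.5 under Python 3.11.15 (igraph 0.11.9, pandas 2.3.3, scipy 1.17.1, numpy 2.4.6). Clusters were named from fixed markers: the best class needed a mean score of 1 and 3 markers at 20 CPM. How scores became names was settled after the clusters were seen, and clusters 4, 17 and 19, with markers of a second class, stayed unnamed.

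UMIs were summed per class and library. A log2 ratio sets AptCD4-LNT over Untreated and is given for genes with at least 100 UMIs. Shares have exact binomial and ratios exact conditional binomial 95% intervals, checked on simulated Poisson counts. Members named were drawn from the 3 furthest above and below the median member per class with at least 200 UMIs. Those past 1.5-fold in share of member UMIs, the paralogs and rule edge, the named role groups and the 3 members with most UMIs were added. Not all of the furthest members are described. Among those left out were Rpl6 (-0.55) and Rps28 (-0.53) in pericyte-like cells, Rpl13a (-0.42) in T-like cells and Rpl31 (0.41) in endothelial-like cells. The alternatives tried were no doublet removal, equal weight per cell, thinning to 1000 UMIs, centring on the median gene, members among the clustering genes, Leiden resolution 0.5, other count and mitochondrial limits. Promoter windows, gene neighbours and gene types are from RefSeq (GRCm38.p6), used without coordinates except where a window is printed.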

Additional observations from a re-analysis of the deposited data

Results flagged for a closer look

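The share of ribosomal protein UMIs moved in opposite directions in 2 vascular classes, with a log2 ratio of 0.11 in endothelial-like cells and -0.22 in pericyte-like cells. The difference between these 2 ratios was not tested, each rests on 1 library per group, and the endothelial-like value turned when cells were weighted equally or thinned.

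Cluster 17, which stayed unnamed because it holds erythroid and mast cell markers together (Cma1, Hbb-bs and Hba-a1 lead it), had the highest share of ribosomal protein UMIs of the clusters, at 25.3% in the AptCD4-LNT library (88 cells) and 19.2% in the Untreated library (345 cells). It enters no comparison of the report. Its median cell stood lower, at 17.8% and 16.3%.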

How the results depend on the processing

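The log2 ratio of the ribosomal protein share was recomputed under each alternative, and 47 of 79 recomputed shares moved by less than their interval, 25 moved further and 7 turned. In all kept cells (-0.01) it was -0.013 without doublet removal, -0.20 with each cell weighted equally, -0.26 thinned to 1000 UMIs and -0.084 centred on the median gene. In epithelial-like cells (0.02) it turned to -0.028 when centred. In T-like cells (-0.11) it was -0.055 without doublet removal, -0.19 weighted equally, -0.21 thinned, -0.14 centred and -0.12 at Leiden resolution 0.5. In fibroblast-like cells (-0.10) the same 5 settings gave -0.14, -0.22, -0.18, -0.065 and -0.094. In pericyte-like cells (-0.22) equal weights gave -0.14, thinning -0.081 and centring -0.26. In endothelial-like cells (0.11) it was 0.089 without doublet removal and turned to -0.0078 with equal weights and -0.078 thinned. In monocyte-macrophage-like cells (0.05) it turned to -0.028 without doublet removal, -0.20 with equal weights, -0.12 thinned and -0.14 centred, and was 0.054 with members among the clustering genes and 0.059 at resolution 0.5. In neutrophil-like cells (-0.09) it was -0.64 without doublet removal, -0.016 when the mixed cluster was then left out (chosen after seeing the data), -0.17 with equal weights, -0.14 thinned and -0.31 centred. Apart from the mixed cluster, the cause of these changes was not tested.

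The number of members past 1.5-fold became 1 in epithelial-like cells when centred, 6 thinned and 1 centred in T-like cells, 3 thinned and 0 with a minimum of 1000 UMIs in fibroblast-like cells, which leaves out Rpl39l, and 2 without doublet removal, 3 thinned and 2 centred in pericyte-like cells. It became 2 thinned in endothelial-like cells, and 54 without doublet removal (0 when the mixed cluster was left out), 8 thinned, 9 centred and 1 with members among the clustering genes in neutrophil-like cells. In that last setting a cluster led by Hcar2 and Cstdc4 (442 and 2014 cells) stayed unnamed for low depth and left the class. The share of all genes past 1.5-fold was not computed under these settings, so the counts are no result about the members. The share of Rps18 in Untreated neutrophil-like cells against the class mean turned from -0.93 to 0.0077 without doublet removal. Thinning left out 670 and 2872 cells. No paired analysis was possible because each group holds 1 library. With 1 library per group no replicate could be left out.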

Other observations

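Some pseudogene rows outside the symbol rule were class-restricted. Rps6-ps1, the pseudogene row with the second most UMIs, stood at 148 CPM with AptCD4-LNT and 127 CPM Untreated in epithelial-like cells, at 2.70 and 6.03 CPM in monocyte-macrophage-like cells and at 4.31 and 23.4 CPM in fibroblast-like cells. Rps6 itself was spread over all classes, at 268 and 251 CPM in fibroblast-like cells. Rps18-ps6, in contrast, followed the members, at 496 and 491 CPM in epithelial-like and 28.6 and 39.6 CPM in neutrophil-like cells. The fibroblast-like values of Rps6-ps1 stand beside summed epithelial markers of 173 and 1048 CPM in the same cells.

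In neutrophil-like cells mitochondrial ribosomal protein genes lay near the median of all genes, and the cytosolic members below it. Of 30 mitochondrial ones with at least 100 UMIs there, 5 were higher and 2 lower by over 1.5-fold in the AptCD4-LNT library (all genes 24.9% and 5.39%), with a median log2 ratio of 0.25, where the median cytosolic member was -0.14 and the median of all genes 0.22.

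Among cells outside the 7 classes, osteoclast-like cells (23 and 29 cells) gave 12.6% and 12.2% of UMIs from the members, and the unnamed cluster 19, led by Timd4, Ccr7 and Igkc (72 and 77 cells), 12.6% and 12.02%. Rps9 stood at 2936 and 2630 CPM in cluster 19 and at 4137 and 2886 CPM in cluster 17.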
